A study of Sus scrofa with 92 samples.

Results

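The liver of carbohydrate prefed (CPF) pigs was compared between 8 and 20 hours after resuscitation from hemorrhagic shock and polytrauma (FR8 and FR20), within the same animals. The comparison holds the FR8 and FR20 libraries of CPF animals 7, 8, 13 and 18, which are 8 of the 92 libraries of the series and form 4 pairs by animal. CPF animal 3 was left out because its FR8 library holds 4388 counts. The series follows 23 pigs, 18 fasted (FS) and 5 CPF, each biopsied at Baseline (B), after instrumentation, and at 2 (FR2), 8 and 20 hours into full resuscitation. All were juvenile male Yorkshire-Landrace pigs kept without food overnight. The CPF animals received a bolus of a syrup of mixed sugars before anesthesia, and the FS animals did not. All animals were splenectomized and then given a blunt injury to the chest, a hemorrhage and a crush injury of the liver, a period of shock, limited fluid and then full resuscitation. By the labels, CPF animals 7 and 8 died and CPF animals 13 and 18 lived. Of the 18 FS animals, 3 died (animals 2, 16 and 20) and the others lived. Survival was thus not balanced between the CPF and FS animals compared, and its part in that comparison was not tested. A biopsy taken from the edge of the liver is a mixture of cells, and repeated biopsies were taken from a liver that had itself been crushed. No uninjured animals are analysed here, so time after resuscitation, time of day and time since feeding cannot be told apart.

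The liver carries most of the body's cholesterol and bile acid synthesis, makes ketone bodies from fatty acids, breaks down amino acids and secretes most plasma proteins. After shock and injury hepatocytes shift much of this work toward acute phase proteins and protein folding, under signals such as interleukin 6, interleukin 1 and glucocorticoids. Chaperones of the heat shock family, which hold and refold unfolded proteins, are induced in the same period. The comparison of FR20 with FR8 asks which of these programs moved during the later part of resuscitation in animals fed carbohydrate beforehand.

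The 8 libraries hold between 8855156 and 12371875 counts on genes, with a median of 11606211, and the hepatocyte genes ALB, TF and APOC3 (albumin, transferrin and an apolipoprotein) led the hepatocyte list in them. The FR20 library of animal 13 stood apart. Its root mean square log2 deviation from the mean of its group was 0.687, against 0.375 to 0.525 in the other 3 FR20 libraries, so counts of calls are given with and without this animal. Among the FS animals used for comparison, the Baseline libraries of animals 17, 19 and 21 held 70469 to 77841 CPM (counts scaled to a common library size) of striated muscle genes, against 17.9 to 88.7 in the other 15. At FR8 and FR20 the muscle sums of these 3 animals were 16.3 to 58.2 CPM.

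From FR8 to FR20, BDH1 and ACAT1 of ketone body metabolism, MVK of mevalonate synthesis and UROC1 and FTCD of histidine breakdown rose in CPF liver. HAL, at the head of histidine breakdown, was not called and had a log2 fold change of −0.80. TLR2, which senses bacterial lipoproteins, the chaperone HSP90AA1 and the stress kinase MAPK14 fell. Of 11554 genes tested with animal terms on the 16 libraries of the 4 animals, 55 passed both an edgeR quasi-likelihood adjusted p (Benjamini-Hochberg) under 0.05 and a log2 fold change of at least 1, which is 0.476% of those tested. Of these, 37 rose (0.320%), by 1.01 to 2.95 on the log2 scale with a median of 1.55, and 18 fell (0.156%), by 1.03 to 2.81 with a median of −1.39. All 55 moved the same way in all 4 animals. In 27 of the 37 and 17 of the 18 the 4 FR20 values did not overlap the 4 FR8 values, against 5.31% of all genes tested. The genes were called on these same 4 animals, which by itself favors agreement in direction and lack of overlap. Both are therefore descriptions. Over all genes the median log2 fold change was 0.0069 and 50.6% were above 0.

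The number of genes called rested on which animals were kept. Without animal 7 the test called 2 genes, without animal 18 it called 1, without animal 8 it called 37 and without animal 13 it called 86. Of the 37 genes that rose, 21 were called again without animal 13 and 0 without animal 7 or animal 18. Of the 18 that fell, 9 were called again without animal 13, 2 without animal 7 and 1 without animal 18. Without the animal terms 9 genes were called, 5 higher and 4 lower. DESeq2 called 281, and all 55 genes were among them.

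MVK, BDH1 and ACAT1 rose. In the lists of cholesterol synthesis and of fatty acid oxidation MVK and BDH1 were the called members. They were 1 of 19 and 1 of 23 genes, against 0.320% of all genes called higher. MVK, mevalonate kinase of sterol synthesis, stood in animals 7, 8, 13 and 18 at 40.97, 13.5, 41.3 and 17.6 CPM at FR8 and 150.3, 44.4, 177 and 129 CPM at FR20 (log2 fold change 2.18, SE 0.31, edgeR adjusted p = 0.0189). BDH1, the mitochondrial enzyme that interconverts acetoacetate and 3-hydroxybutyrate, stood at 8.63, 20.6, 33.6 and 13.3 CPM at FR8 and 35.99, 42.9, 259 and 75.3 CPM at FR20 (log2 fold change 2.25, SE 0.40, edgeR adjusted p = 0.0381). The values of both genes at FR20 lay above every value at FR8, and the FR20 library of animal 13 was by far the highest for BDH1. ACAT1, the mitochondrial acetoacetyl-CoA thiolase, stood at 126, 79.8, 156 and 79.8 CPM at FR8 and 423, 135, 400.1 and 319.7 CPM at FR20 (log2 fold change 1.504, SE 0.28, edgeR adjusted p = 0.0426), and animal 8 at FR20 stayed under animal 13 at FR8. ACAD10, of the acyl-CoA dehydrogenase family that acts in fatty acid breakdown, rose from 10.4 ± 3.62 CPM at FR8 to 25.4 ± 10.1 CPM at FR20 (SD, n = 4), a log2 fold change of 1.26. LPIN3, a phosphatidate phosphatase of glycerolipid synthesis, stood at 2.39, 4.91, 2.19 and 2.56 CPM at FR8 and 13.3, 7.72, 14.6 and 10.9 CPM at FR20 (log2 fold change 1.94, SE 0.32, edgeR adjusted p = 0.0381), without overlap.

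UROC1, FTCD, AGXT and INMT rose. None of them is a member of the list of the urea cycle and amino acid breakdown, in which no gene was called. UROC1, urocanate hydratase of histidine breakdown, stood at 51.6, 39.7, 59.3 and 20.2 CPM at FR8 and 134, 76.8, 394 and 188 CPM at FR20 (log2 fold change 2.16, SE 0.38, edgeR adjusted p = 0.0381). FTCD, which completes the transfer of the histidine carbon to folate, stood at 167, 83.5, 132 and 119 CPM at FR8 and 327, 119, 368 and 309 CPM at FR20 (log2 fold change 1.10, SE 0.22, edgeR adjusted p = 0.0471). UROC1 did not overlap between the time points, while FTCD of animal 8 at FR20 lay within the FR8 range. HAL, histidine ammonia-lyase at the head of the same pathway, was not called and stood at 135, 196, 71.995 and 178 CPM at FR8 and 70.1, 90.1, 89.8 and 58.1 CPM at FR20 (log2 fold change −0.80). AGXT, the aminotransferase that detoxifies glyoxylate with alanine, stood at 64.5, 63.1, 32.9 and 53.8 CPM at FR8 and 259, 109, 140.0 and 195 CPM at FR20 (log2 fold change 1.69, SE 0.27, edgeR adjusted p = 0.0381). INMT, a methyltransferase of indolamines, stood at 26.7, 18.95, 42.3 and 23.6 CPM at FR8 and 98.3, 47.3, 299.6 and 93.8 CPM at FR20 (log2 fold change 2.12, SE 0.37, edgeR adjusted p = 0.0381). Both were above the whole FR8 range in every animal at FR20.

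The other named genes that rose have varied roles. NR1I2, the pregnane X receptor that senses bile acids and drugs, stood at 37.3, 35.01, 53.9 and 32.3 CPM at FR8 and 78.4, 63.3, 91.95 and 84.5 CPM at FR20 (log2 fold change 1.01, SE 0.18, edgeR adjusted p = 0.0381), without overlap. CUL7, a cullin of a ubiquitin ligase, stood at 0.551, 1.07, 0.649 and 0.307 CPM at FR8 and 3.48, 5.27, 3.86 and 7.05 CPM at FR20 (log2 fold change 2.95, SE 0.49, edgeR adjusted p = 0.0381), with the largest change and at a low level. CCN2, a matricellular growth factor, stood at 21.04, 33.9, 13.4 and 7.57 CPM at FR8 and 76.96, 53.8, 78.7 and 25.5 CPM at FR20 (log2 fold change 1.70, SE 0.34, edgeR adjusted p = 0.0459), with the FR20 value of animal 18 inside the FR8 range. SELENBP1, a selenium-binding methanethiol oxidase, rose from 55.9 ± 7.51 CPM at FR8 to 212 ± 130.02 CPM at FR20 (SD, n = 4), a log2 fold change of 1.82. ANO1, a calcium-activated chloride channel, rose by a log2 fold change of 1.55, CDIP1, a p53-induced proapoptotic gene, by 1.44, and ELMO3, an adaptor of engulfment and cell movement, by 1.08. SLC45A2, a transporter known from melanosomes, stood at 0.409 to 0.504 CPM at FR8 and 1.03 to 5.46 CPM at FR20, and MFSD13A at 1.26 to 1.53 CPM at FR8 and 3.34 to 7.24 CPM at FR20, both low in this tissue. FTCD and ANO1 lie outside the naming rule and were named after their values were seen, as were the remaining called genes with a symbol, TSHZ2, CTC1, DAZAP1, THOC5, CPN1 and SIGLEC1, with log2 fold changes of 1.67, 2.27, 2.16, 1.17, 1.24 and 1.4997 in that order. Of the 37 genes, 24 carry a symbol in the gene name table used and 13 are counted without a name.

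TLR2, IL1R2 and MAPK14 were among the genes that fell. Of the innate sensing and NF-kappaB list TLR2 and IL1R2 were called, 2 of 25 genes, against 0.156% of all genes called lower. The median log2 fold change of that list was −0.054. TLR2, the toll-like receptor of bacterial lipopeptides, stood in animals 7, 8, 13 and 18 at 36.3, 56.03, 30.7 and 30.3 CPM at FR8 and 8.65, 12.7, 10.46 and 5.99 CPM at FR20 (log2 fold change −2.02, SE 0.19, edgeR adjusted p = 0.000465), the smallest adjusted p of the comparison. IL1R2, the decoy receptor of interleukin 1, stood at 2.02, 1.89, 1.87 and 3.79 CPM at FR8 and 0.846, 0.579, 0.377 and 0.811 CPM at FR20 (log2 fold change −1.85, SE 0.37, edgeR adjusted p = 0.0471), on at most 37 counts at FR8 and 13 at FR20. MAPK14, the p38 alpha kinase of stress and cytokine signaling, stood at 287, 270.2, 556 and 378 CPM at FR8 and 105, 151, 109 and 174 CPM at FR20 (log2 fold change −1.44, SE 0.23, edgeR adjusted p = 0.0381). None of the 3 overlapped between FR8 and FR20.

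The largest fall was that of STEAP4, a metalloreductase of iron and copper that inflammation induces, at 130.4, 115, 100.1 and 188 CPM at FR8 and 26.3, 19.7, 14.9 and 17.5 CPM at FR20 (log2 fold change −2.81, SE 0.36, edgeR adjusted p = 0.00987). NNMT, nicotinamide N-methyltransferase, stood at 1889, 1016, 625 and 2049 CPM at FR8 and 458, 268, 199 and 169 CPM at FR20 (log2 fold change −2.21, SE 0.43, edgeR adjusted p = 0.044). SLC66A2 stood at 514, 317, 148 and 426 CPM at FR8 and 55.3, 100.3, 73.01 and 55.3 CPM at FR20 (log2 fold change −2.23, SE 0.42, edgeR adjusted p = 0.0433). RAB20, a small GTPase of endosomes, stood at 11.9 to 52.5 CPM at FR8 and 3.30 to 8.08 CPM at FR20 (log2 fold change −2.19). In these 4 genes every animal was lower at FR20 than the lowest animal at FR8.

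HSP90AA1, the stress-inducible Hsp90, stood at 1524, 1611, 1967 and 1729 CPM at FR8 and 532, 1160.4, 289.5 and 595 CPM at FR20 (log2 fold change −1.53, SE 0.31, edgeR adjusted p = 0.0471), and its FR20 value in animal 8 was the closest to the FR8 range. FICD, the enzyme that AMPylates the endoplasmic reticulum chaperone BiP, fell from 61.2 ± 40.5 CPM at FR8 to 23.1 ± 5.501 CPM at FR20 (SD, n = 4), a log2 fold change of −1.23. LYVE1, a hyaluronan receptor of sinusoidal and lymphatic endothelium, stood at 119.5, 104, 72.3 and 103 CPM at FR8 and 60.7, 59.02, 28.9 and 30.8 CPM at FR20 (log2 fold change −1.21, SE 0.24, edgeR adjusted p = 0.0471), without overlap. Fewer cells of a type and less RNA per cell cannot be told apart in these bulk libraries. GALNT2 and HS6ST1, glycosyltransferase and sulfotransferase of the secretory pathway, had log2 fold changes of −1.37 and −1.35, and HS6ST1 was the called gene in this direction whose time points overlapped, through animal 8. RANGAP1 of nuclear transport, TRIP10 of actin and membrane remodeling and FLVCR1, a membrane transporter, had log2 fold changes of −1.25, −1.41 and −1.13. DDX39A, an RNA helicase named after its values were seen, had −1.03. Of the 18 genes, 16 carry a symbol.

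The genes that rose had been higher at Baseline than at FR8. All 37 had a Baseline mean above that of FR8, and their median CPM was 68.1 at B, 54.0 at FR2, 18.3 at FR8 and 58.7 at FR20. For 28 of them the FR20 mean lay between FR8 and Baseline, and for 9 it had passed Baseline. MVK was at 187 to 327 CPM at Baseline and 95.3 to 340.4 CPM at FR2, and UROC1 at 236 to 432 CPM at Baseline, so both were still below Baseline at FR20 in the mean. AGXT, at 70.1 to 146 CPM at Baseline, was among those past it. The 18 genes that fell had a Baseline mean below that of FR8, with a median of 44.3 CPM at B, 57.3 at FR2, 94.3 at FR8 and 31.1 at FR20, and 11 of them ended below Baseline. NNMT was at 58.2 to 155 CPM at Baseline and 261 to 838 CPM at FR2, and TLR2 at 6.38 to 12.9 CPM at Baseline. These statements share the FR8 libraries with the calls and are descriptions. The FR20 library of CPF animal 3 took no part in the calls. It lay above all 4 FR8 values for 36 of the 37 genes and below them for 17 of the 18. Of all genes, 42.2% lay outside that range on either side. The 4 FR8 libraries used here are those that chose the genes, which by itself favors such values. This is therefore a description too, and animal 3 has no usable FR8 library to give a change.

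**Figure D1:**
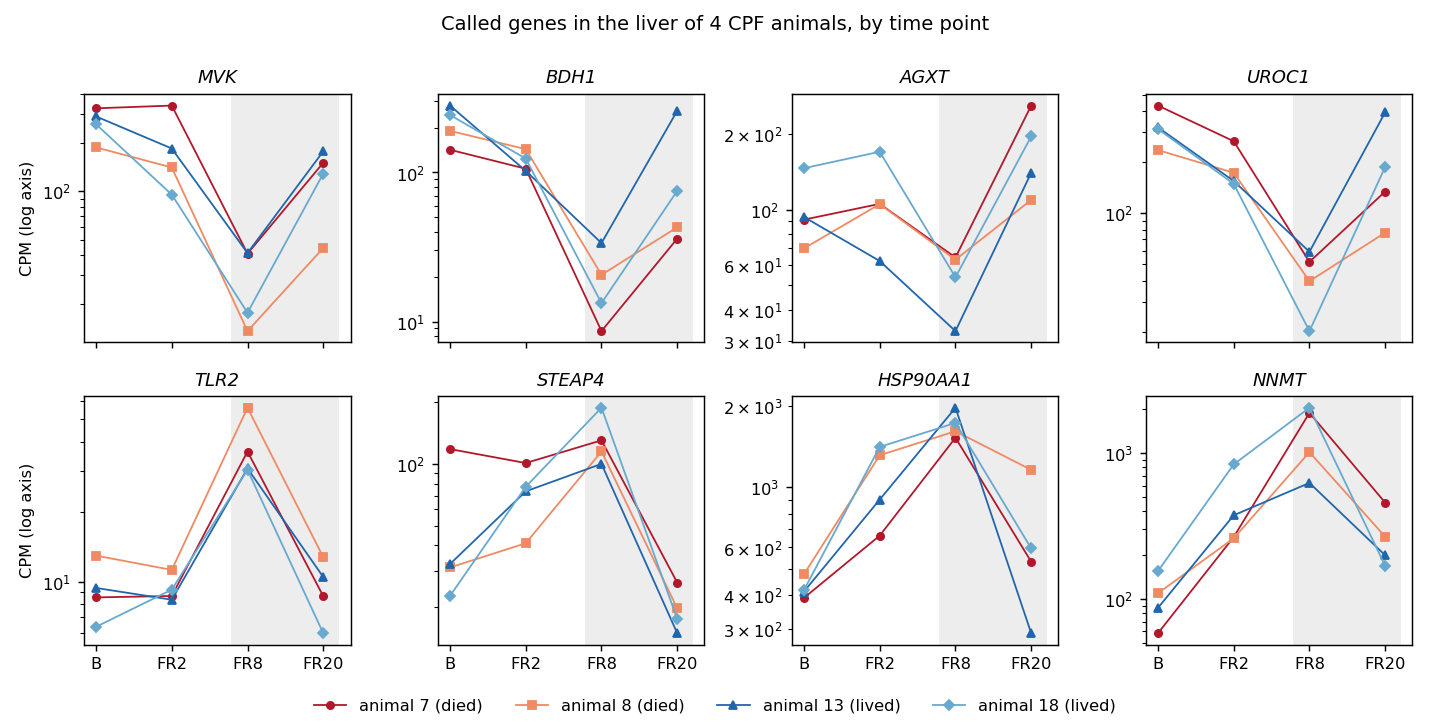
CPM (log axis) of MVK, BDH1, AGXT, UROC1, TLR2, STEAP4, HSP90AA1 and NNMT at B, FR2, FR8 and FR20, with a line for each of CPF animals 7, 8, 13 and 18. MVK, BDH1 and UROC1 were lowest at FR8 and rose by FR20, while TLR2 stood at 30.3 to 56.0 CPM at FR8 and 5.99 to 12.7 CPM at FR20.

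Cholesterol synthesis genes were higher at FR20 than at FR8 as a list, with 1 called gene. Of 19 genes tested from the list of cholesterol synthesis and uptake, 17 had a higher level at FR20, MVK was called, and 12 were higher at an unadjusted p under 0.05, against 8.08% of all genes. Their median log2 fold change was 1.33. SQLE, squalene epoxidase, stood at 9.83, 12.1, 23.1 and 43.8 CPM at FR8 and 171, 23.02, 310.0 and 166 CPM at FR20 (log2 fold change 2.70, SE 0.63, edgeR adjusted p = 0.0705). IDI1, isopentenyl diphosphate isomerase, stood at 12.7, 13.9, 19.2 and 24.04 CPM at FR8 and 82.04, 13.1, 186 and 84.3 CPM at FR20 (log2 fold change 2.16, SE 0.54, edgeR adjusted p = 0.0883). HMGCS1, which makes HMG-CoA, had a log2 fold change of 1.64 (edgeR adjusted p = 0.243), on values of 54.5, 60.9, 61.04 and 124 CPM at FR8 and 157, 65.97, 500.1 and 293 CPM at FR20. Animal 8 had the smallest median change. Its median over the list was 0.0509, against 1.45, 2.09 and 1.32 in animals 7, 13 and 18. Without animal 13 the median of the list was 0.99. Genes here other than MVK were named after their values were seen, as were those of the next paragraphs that are neither called nor at the ends of a list.

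Over the 4 animals together the bile acid and fatty acid lists also had medians above 0, with no called member except BDH1. CYP7A1, the rate-limiting enzyme of bile acid synthesis, stood at 9.46, 13.8, 51.3 and 11.2 CPM at FR8 and 129, 20.4, 171 and 60.8 CPM at FR20 (log2 fold change 2.26, SE 0.62, edgeR adjusted p = 0.114), which did not pass the test. The list of bile acid synthesis and transport had a median log2 fold change of 0.58 (0.37 without animal 18). Its median in animals 7, 8, 13 and 18 was 0.96, 0.35, −0.28 and 1.42. Of 11 genes 3 were higher at an unadjusted p under 0.05, against 8.08% of all genes. Its lowest member was NR1H4, the bile acid receptor FXR, at −0.17. Fatty acid oxidation and ketogenesis had 21 of 23 genes above 0 and a median of 0.38, and CPT1A, which admits long-chain fatty acids into mitochondria, stood at 115, 86.9, 97.8 and 64.4 CPM at FR8 and 132, 147, 347 and 225 CPM at FR20 (log2 fold change 1.18, SE 0.28, edgeR adjusted p = 0.075) without overlap. Fatty acid synthesis had a median of 0.75 over 12 genes, with 5 higher at an unadjusted p under 0.05, against 8.08% of all genes. The median of this list in animals 7, 8, 13 and 18 was 0.64, −0.17, 1.43 and 1.06. Its highest member, LPIN1, stood at 2.57, 7.24, 4.22 and 3.07 CPM at FR8 and 9.87, 8.68, 182 and 10.1 CPM at FR20 (log2 fold change 2.99, edgeR adjusted p = 0.254). Its lowest, SCD, the stearoyl-CoA desaturase, stood at 234, 69.1, 164 and 40.4 CPM at FR8 and 54.3, 36.1, 193 and 48.4 CPM at FR20. FASN, fatty acid synthase, stood at 10.196, 21.4, 15.3 and 4.19 CPM at FR8 and 13.1, 9.07, 389 and 21.2 CPM at FR20. In both LPIN1 and FASN animal 13 was by far the highest at FR20.

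Amino acid breakdown and the urea cycle had a median of 0.65 over 20 genes, with 17 above 0 and none called. At an unadjusted p under 0.05, 5 were higher against 8.08% of all genes, and 1, HAL, was lower against 5.57%. GLS2, the liver glutaminase, stood at 6.61, 17.8, 6.09 and 7.78 CPM at FR8 and 34.02, 19.5, 51.5 and 27.4 CPM at FR20 (log2 fold change 1.96, SE 0.43, edgeR adjusted p = 0.0595), without overlap. TAT, tyrosine aminotransferase, stood at 185, 712, 408 and 175 CPM at FR8 and 1648, 547, 6476 and 1086 CPM at FR20 (log2 fold change 3.04, SE 0.95, edgeR adjusted p = 0.163). CPS1, which starts the urea cycle, stood at 1014, 2237, 979 and 615 CPM at FR8 and 1449.7, 1039.5, 3754 and 1008 CPM at FR20 (log2 fold change 0.67). The list medians of animals 7, 8, 13 and 18 were 0.43, −0.58, 1.47 and 0.70, and the median without animal 13 was 0.24.

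Glucose and glycogen genes had a median of 0.080 over 19 genes (−0.026 without animal 18 and 0.24 without animal 7). At an unadjusted p under 0.05, 5 were higher and 1 lower, against 8.08% and 5.57% of all genes. GYS2, liver glycogen synthase, had the highest change at 1.86, and PCK2, the mitochondrial PEPCK, stood at 318, 209, 441 and 259 CPM at FR8 and 975, 264, 1044 and 843 CPM at FR20 (log2 fold change 1.28, SE 0.28, edgeR adjusted p = 0.061). CHKA, choline kinase alpha, stood at 7.37 to 52.3 CPM at FR8 and 9.87 to 17.04 CPM at FR20 (log2 fold change −0.51).

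Heat shock protein genes were lower at FR20 than at FR8 as a list. Of 17 genes tested 15 were below 0, HSP90AA1 was called, 12 were lower at an unadjusted p under 0.05 against 5.57% of all genes, and the median log2 fold change was −0.90. In 10 the FR20 values lay below every FR8 value, against 2.68% of all genes. HSPA8, the constitutive Hsc70, stood at 143, 174, 276 and 90.7 CPM at FR8 and 22.1, 76.3, 36.4 and 72.97 CPM at FR20 (log2 fold change −1.75, SE 0.42, edgeR adjusted p = 0.0788). DNAJB1, its J-domain partner, stood at 366, 189, 294 and 214 CPM at FR8 and 51.03, 148, 32.2 and 91.4 CPM at FR20 (log2 fold change −2.01, SE 0.44, edgeR adjusted p = 0.061). HSPH1, a nucleotide exchange factor for Hsp70, stood at 139, 157, 335 and 115 CPM at FR8 and 20.1, 96.8, 25.7 and 74.5 CPM at FR20 (log2 fold change −2.08, SE 0.51, edgeR adjusted p = 0.0841). The FR20 values of animals 7 and 13 were the lowest in all 3 genes, and those of animals 8 and 18 were nearer to FR8. HSPD1, the mitochondrial Hsp60, stood at 1607, 1318, 1871 and 1647 CPM at FR8 and 939, 1260.1, 584 and 781 CPM at FR20 (log2 fold change −0.90, SE 0.24, edgeR adjusted p = 0.111). HSF1, the transcription factor that drives these genes, had a log2 fold change of 0.017, and TRAP1, the mitochondrial Hsp90, 0.18. The median of the list by animal was −1.51, −0.35, −1.68 and −0.62 in animals 7, 8, 13 and 18, and leaving out each in turn gave −0.80 to −1.18.

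Chaperones of the endoplasmic reticulum gave smaller values. All 17 genes of the unfolded protein response list were below 0, with a median of −0.52 that was −0.25 without animal 13 and −1.06 without animal 8. None was called, and 4 were lower at an unadjusted p under 0.05, against 5.57% of all genes. XBP1, a transcription factor of this response, stood at 387, 249, 272 and 520.2 CPM at FR8 and 192, 172, 154 and 168 CPM at FR20 (log2 fold change −0.999, SE 0.24, edgeR adjusted p = 0.0775), without overlap. HYOU1, a chaperone of the endoplasmic reticulum, stood at 1109, 624, 584 and 724 CPM at FR8 and 186, 723, 132 and 375 CPM at FR20 (log2 fold change −1.18), and animal 8 was higher at FR20 than at FR8. The median over the list was 0.53 in animal 8, against −1.01, −1.90 and −0.49 in animals 7, 13 and 18. The ATF4 list of the amino acid stress response had a median of 0.54 over 16 genes, which was 0.16 without animal 18 and was −0.25 in animal 13 alone. Of these genes 3 were higher at an unadjusted p under 0.05, against 8.08% of all genes. The values ran from VLDLR at −0.20 to SESN2, a stress-induced inhibitor of mTORC1, at 2.06.

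**Figure D2:**
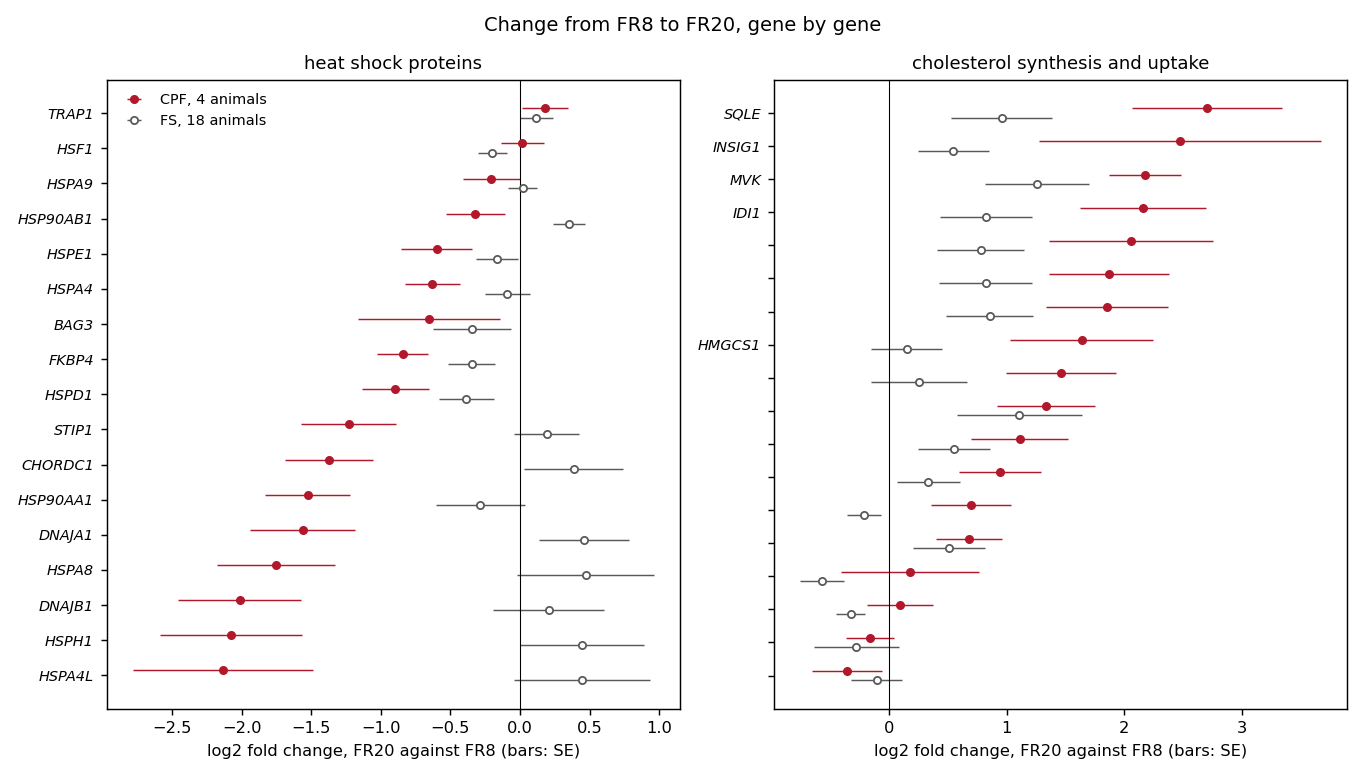
Log2 fold change from FR8 to FR20 (horizontal axis, ± SE) of genes of the heat shock list and of the cholesterol synthesis and uptake list in the 4 CPF animals and in all 18 FS animals, with names on the right only for genes given in the text. In CPF animals 15 of 17 heat shock genes were below 0, and SQLE had the highest value of the cholesterol genes drawn, at 2.70.

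Clock genes were described one by one because their phase moves with the hour. Of 14 tested, 11 were above 0 and none was called, with a median log2 fold change of 1.11. PER2, a repressor of the clock, stood at 2.39, 0.693, 1.70 and 0.307 CPM at FR8 and 2.82, 4.31, 23.5 and 13.8 CPM at FR20 (log2 fold change 3.18, SE 0.68, edgeR adjusted p = 0.0547). NR1D2, or REV-ERB beta, stood at 25.2, 16.5, 42.3 and 15.1 CPM at FR8 and 46.3, 50.9, 81.5 and 88.3 CPM at FR20 (log2 fold change 1.49, SE 0.34, edgeR adjusted p = 0.0678). DBP, an output factor, stood at 1.10, 0.441, 0.974 and 0.102 CPM at FR8 and 1.60, 2.57, 1.13 and 8.11 CPM at FR20 (log2 fold change 2.10, SE 0.72, edgeR adjusted p = 0.201). These 3 lay above every FR8 value at FR20, as did 303 of all 11554 genes tested. At an unadjusted p under 0.05, 6 of the 14 were higher and 1 was lower, against 8.08% and 5.57% of all genes. CRY2, PER1, BHLHE41, RORA and HLF had log2 fold changes of 1.73, 1.55, 1.54, 1.14 and 1.04 in that order, and CRY1 and NFIL3 of 0.34 and 0.022. The activators CLOCK, BMAL1 and NPAS2 had −0.82, −0.92 and −1.005. Without animal 13 the median of the list was 0.35.

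Inflammatory and cytokine lists held the called genes TLR2 and IL1R2 and no other called gene. Innate sensing and NF-kappaB genes had a median of −0.054 over 25 genes. At an unadjusted p under 0.05, 3 were lower and 1 higher, against 5.57% and 8.08% of all genes. MYD88, the adaptor of toll-like and interleukin 1 receptors, stood at 91.7, 91.4, 84.01 and 103 CPM at FR8 and 54.97, 62.7, 24.02 and 55.6 CPM at FR20 (log2 fold change −0.93, SE 0.25, edgeR adjusted p = 0.114) without overlap. The list of the IL-6 and STAT3 pathway had a median of −0.35 over 15 genes (−0.17 without animal 8 to −0.51 without animal 13). Of these genes 3 were lower at that p, against 5.57% of all genes. BCL3, an NF-kappaB cofactor, stood at 83.04, 58.6, 35.8 and 89.2 CPM at FR8 and 20.4, 35.4, 7.73 and 22.8 CPM at FR20 (log2 fold change −1.66, SE 0.37, edgeR adjusted p = 0.061), without overlap. STAT3, the transcription factor downstream of interleukin 6, stood at 85.8, 260.1, 352 and 148 CPM at FR8 and 33.2, 103, 181 and 107 CPM at FR20 (log2 fold change −1.02, SE 0.34, edgeR adjusted p = 0.192). IL10RA, a receptor chain of interleukin 10, was highest in that list at 0.51. Interferon-stimulated genes had a median of −0.42 over 16 genes (−0.22 without animal 13), with medians of −0.087, 0.064, −1.06 and −0.52 in animals 7, 8, 13 and 18. Of these genes 13 were below 0, and 4 were lower at an unadjusted p under 0.05, against 5.57% of all genes. The values ran from ISG20, an antiviral exonuclease, at −1.12 to MX2 at 0.35. Chemokines and adhesion molecules had a median of −0.093 over 13 genes, from CXCL8, which attracts neutrophils, at −1.17 to CXCL11, which attracts T cells, at 1.71.

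Lists of secreted plasma proteins had medians between −0.25 and 0.062. Positive acute phase proteins had a median of −0.011 over 13 genes, and their lowest members were the fibrinogen chains FGG at −0.93 and FGB at −0.88. Negative acute phase proteins had −0.25 over 14 genes, from TF at −0.60 to SERPINA6, which carries cortisol, at 1.14. The 14 include the transferrin receptor TFRC, at 1.002, which entered through a synonym and is not a plasma protein of this kind. Coagulation genes had 0.055 over 19 genes and a lowest value of −1.14 for PLAT, the tissue plasminogen activator. Complement had 0.062 over 22 genes and a lowest value of −1.09 for MASP2, a protease of the lectin pathway. Apolipoproteins had −0.097 over 12 genes. Leaving out each animal in turn gave medians of −0.27 to −0.063, −0.35 to 0.036, −0.19 to 0.15, −0.087 to 0.13 and −0.24 to −0.017 for these 5 lists in that order, and the coagulation and complement medians were below 0 without animal 13. None of these lists held a called gene.

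In the remaining lists at most 1 gene each was called. Medians were −0.072 for 23 cytosolic ribosomal proteins, −0.071 for 32 respiratory chain subunits, −0.19 for 19 proteasome subunits, −0.076 for 29 ribosome biogenesis genes, −0.073 for 18 hypoxia inducible factor targets, −0.16 for 11 apoptosis and p53 targets and 0.25 for 12 genes of the insulin and IGF axis, with none called in any. Without 1 animal the insulin and IGF median was 0.73 (animal 7) or 0.13 (animal 13), the proteasome median ran from −0.41 (animal 8) to −0.055 (animal 18), and each of the other 5 medians was above 0 without animal 18. Drug metabolism and antioxidant genes had 0.041 over 10 genes (−0.25 without animal 18, 0.23 without animal 13) and held NR1I2, and iron and heme genes had 0.27 over 12 (0.16 without animal 7, 0.53 without animal 13) and held STEAP4. The median of the 15 immediate early genes, which held CCN2, was 0.57 and 0.083 without animal 13. The median of 11 glucocorticoid targets was 0.95 and −0.049 without animal 13, and that of 23 cell cycle genes was 0.31 and −0.37 without it. The 23 include NIFK, which a synonym put in the place of MKI67.

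**Figure D3:**
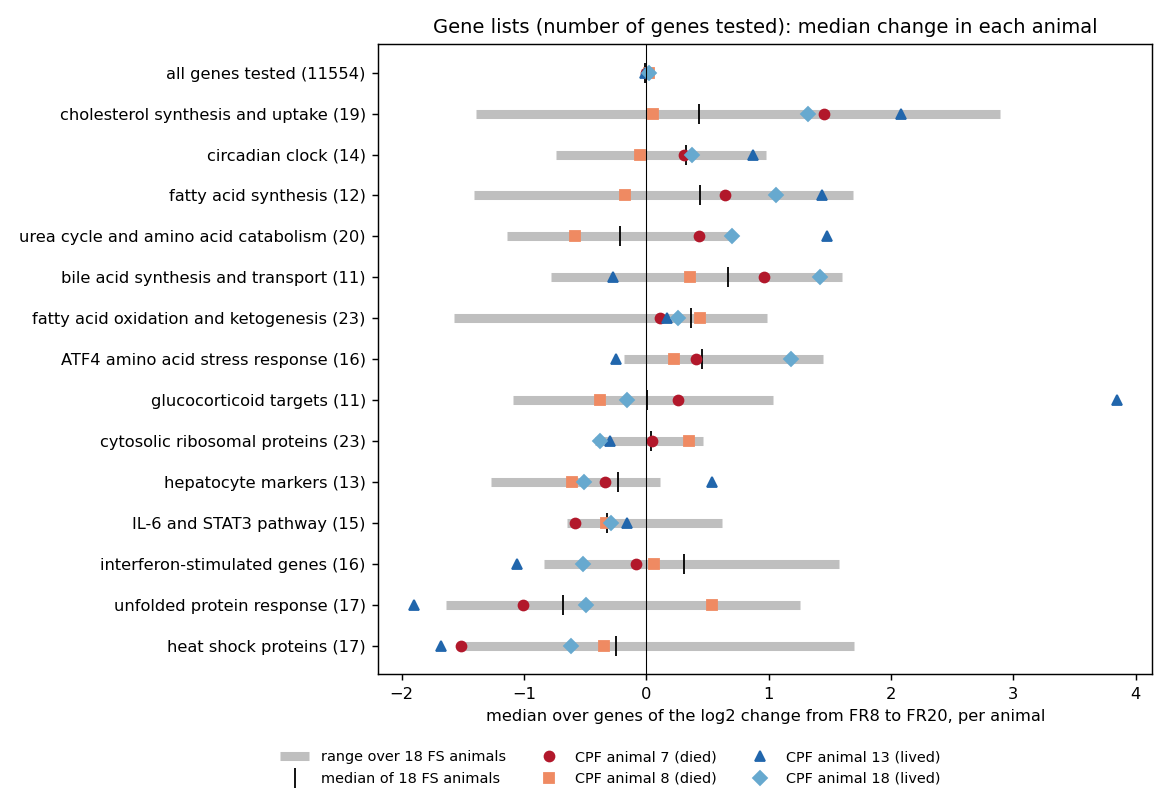
Median log2 change from FR8 to FR20 of each gene list in each of the 4 CPF animals (points), beside the range and median over all 18 FS animals (line and tick). Heat shock medians were below 0 in all 4 CPF animals, and the glucocorticoid median of animal 13 reached 3.85.

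The ranges of summed cell type markers over the 4 animals overlapped between the time points in every list. Such ranges do not compare each animal with itself. The Kupffer cell and macrophage list was led by C1QA, MRC1 and CD68, with CLEC4F at 0 in all 8 libraries. In animals 7, 8, 13 and 18 it summed to 590, 382, 321 and 383 CPM at FR8 and 588, 529, 526 and 508 CPM at FR20. It was thus higher at FR20 in animals 8, 13 and 18. Of its 9 genes tested 8 were above 0, with a median log2 fold change of 0.40 and none called. At an unadjusted p under 0.05, 2 were higher, against 8.08% of all genes. Neutrophil markers, ALOX5AP and NCF1 among the most abundant, summed to 17.9 to 41.4 and 20.6 to 40.1 CPM, and the defining markers CSF3R and MMP8 were at 0. T and NK cell markers summed to 33.1 to 58.8 and 37.6 to 85.9 CPM, and B and plasma cell markers to 2.15 to 6.61 and 3.09 to 7.82 CPM. Endothelial markers summed to 567 to 798 and 493 to 830 CPM, and of 12 tested LYVE1 was called. Stellate cell and fibrosis genes, mostly FN1, summed to 3692 to 5125 and 3450 to 7326 CPM, cholangiocyte markers to 73.6 to 196 and 45.3 to 186 CPM, and adipocyte markers to 9.01 to 13.3 and 4.62 to 24.1 CPM. Striated muscle markers, mostly DES, summed in animals 7, 8, 13 and 18 to 19.6, 16.7, 14.3 and 15.04 CPM at FR8 and 20.95, 40.1, 18.7 and 18.8 CPM at FR20, higher in 4 of 4 animals, with 1 of 4 tested genes above 0. Erythroid markers, nearly all HBB, summed to 49.9 to 192 CPM at FR8 and 42.6 to 1250 CPM at FR20, where animal 13 was the highest. All 3 erythroid genes tested were higher at an unadjusted p under 0.05, against 8.08% of all genes. None was called, and their median log2 fold change was 2.40, or 1.001 without animal 13. By animal the median over these genes was 1.30, 0.70, 4.61 and 0.65 in animals 7, 8, 13 and 18. Hepatocyte markers summed to 107960, 80078, 132420 and 88515 CPM at FR8 and 65531, 48906, 273080 and 38854 CPM at FR20, lower in animals 7, 8 and 18 and higher in animal 13, with 10 of 13 genes below 0. The part of these sums in the results above was not tested.

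The FR20 library of animal 13 carried high values for metabolic and glucocorticoid-responsive genes. ALB stood there at 196100 CPM, against 15309 to 25386 CPM in the other 3 animals. PCK1, the cytosolic PEPCK of gluconeogenesis, stood at 1449, 2194, 321 and 182 CPM at FR8 and 728, 1459.7, 9032 and 497 CPM at FR20. KLF9, a glucocorticoid-induced transcription factor, stood at 43.1, 26.8, 32.95 and 24.3 CPM at FR8 and 72.3, 20.96, 482 and 19.9 CPM at FR20. INSIG1, a sterol-regulated inhibitor of cholesterol synthesis, stood at 161, 175, 40.5 and 55.3 CPM at FR8 and 165, 168, 1741 and 139.7 CPM at FR20. No other FR20 library showed such levels in any of the 3. SGK1, a kinase induced by glucocorticoids, stood at 165, 166, 30.8 and 53.2 CPM at FR8 and 198, 89.2, 599 and 79.1 CPM at FR20. FKBP5, a cochaperone of the glucocorticoid receptor, stood at 23.4, 25.2, 11.3 and 10.23 CPM at FR8 and 18.3, 10.03, 64.4 and 7.86 CPM at FR20. These genes were named after their values were seen. Albumin counts take up a share of the library, and whether this lowered other genes in it was not tested.

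**Figure D4:**
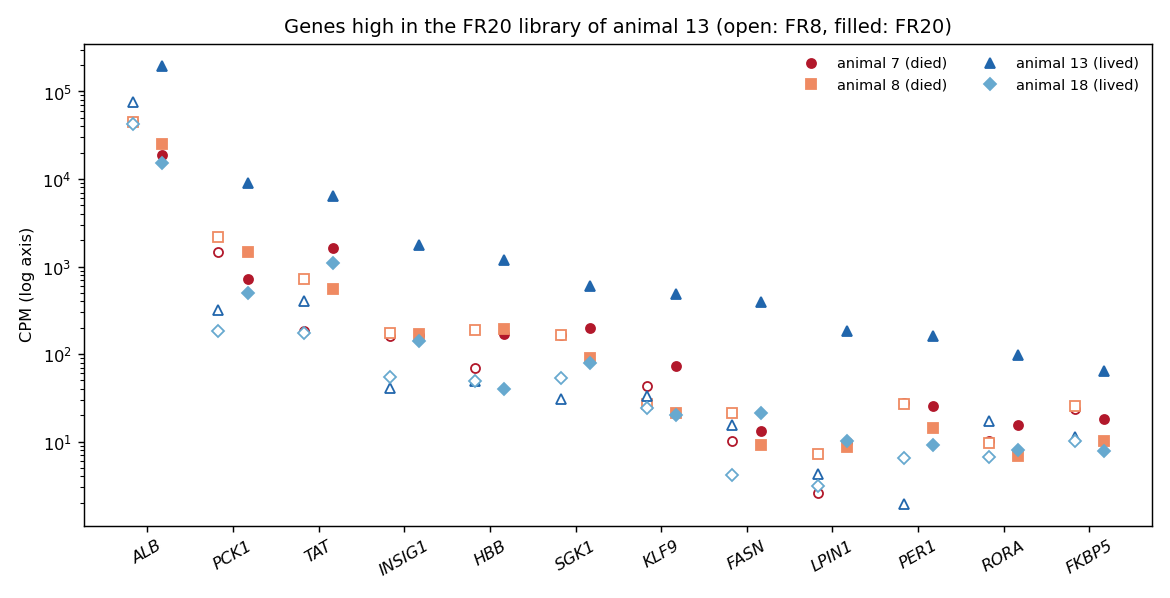
CPM (log axis) of ALB, PCK1, TAT, INSIG1, HBB, SGK1, KLF9, FASN, LPIN1, PER1, RORA and FKBP5 at FR8 (open) and FR20 (filled) in CPF animals 7, 8, 13 and 18. At FR20 animal 13 was the highest of the 4 in each of these genes, with ALB at 196100 CPM.

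The genes called in CPF animals had the same direction in fasted animals, with 1 exception. In the 18 FS animals the same test, on their own 36 libraries, called 98 genes (0.771%). All 37 genes that rose in CPF animals were above 0 in FS animals, 29 at an unadjusted p under 0.05 against 12.1% of all genes, with a median log2 fold change of 0.72, and TSHZ2 was called. Of the 18 that fell, 17 were below 0, 9 at an unadjusted p under 0.05 against 10.3%, with a median of −0.64. IL1R2 was the exception at 0.28. MVK had 1.26 (SE 0.44) in FS animals, BDH1 1.15 (SE 0.42), TLR2 −0.86 (SE 0.45) and STEAP4 −0.87 (SE 0.52).

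Not all FS animals moved this way. The median change of the 37 genes was −0.74, −1.37 and −0.78 in FS animals 17, 19 and 21, and −1.77 in FS animal 9, against 0.51 to 1.72 in 13 of the other FS animals and −0.092 in animal 10. For the 18 genes that fell it was 1.43, 0.76, 0.90 and 0.96 in animals 17, 19, 21 and 9. The former 3 are the animals with muscle-rich Baseline libraries, which took no part in this comparison, and the cause was not tested. Whether the FR8 and FR20 labels of these 4 animals were exchanged cannot be settled from the counts. The labels were kept as given, and an exchange would turn the sign of their changes and alter the values over all FS animals. Leaving these 3 out, an alternative chosen after seeing the data, the FS test called 637 genes (5.08%). Then 34 of the 37 were higher at an unadjusted p under 0.05 against 21.5% of all genes, 19 were called, and their median was 1.03. Of the 18, all were below 0, 16 at an unadjusted p under 0.05 against 16.2%, 5 were called, and their median was −0.82. Animal 9 was kept in both fits.

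**Figure D5:**
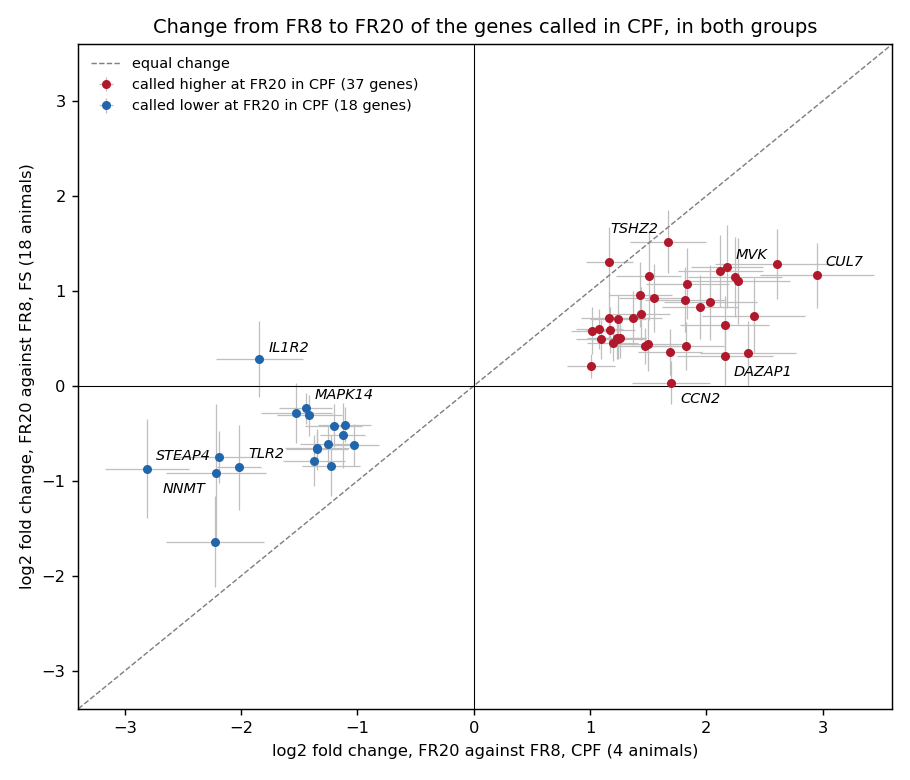
Log2 fold change from FR8 to FR20 in 4 CPF animals (horizontal axis) against that in all 18 FS animals (vertical axis) for the 55 genes called in CPF animals, with ± SE bars and the line of equal change. All 37 genes that rose were above 0 in FS animals, 17 of the 18 that fell were below 0, and the FS medians of both groups were 0.72 and −0.64 against 1.55 and −1.39 in CPF animals.

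The difference between CPF and FS animals was tested directly and no gene was called. Of 12943 genes tested on 44 libraries with edgeR's quasi-likelihood test, 0 passed (0%), and DESeq2, the likelihood ratio test and limma also called 0. At an unadjusted p under 0.05 the CPF change was higher for 274 genes (2.12%) and lower for 214 (1.65%). Without the 3 FS animals with muscle-rich Baseline libraries 0 of 12797 were called (0%), with 267 higher (2.09%) and 248 lower (1.94%). Of the 37 genes 8 and of the 18 genes 4 differed at an unadjusted p under 0.05, and 6 and 4 without those 3 animals. The 55 genes were chosen by their CPF change, which by itself favors a larger value in CPF than in FS animals.

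The genes with the smallest p for the difference did not pass the adjusted threshold. UBE2D4, a ubiquitin-conjugating enzyme, had a log2 fold change of 0.78 in CPF and −0.29 in FS animals (difference 1.06, SE 0.26, unadjusted p = 0.000406, edgeR adjusted p = 1). It was higher at FR20 in 4 of 4 CPF animals and lower in 15 of 18 FS animals. MAT2A, which makes S-adenosylmethionine, stood at 475, 117, 196 and 275 CPM at FR8 and 112, 97.4, 55.1 and 261 CPM at FR20 in CPF animals, and its log2 fold change was −0.91 in CPF and 0.93 in FS animals (difference −1.99, SE 0.49, unadjusted p = 0.000432). TNFRSF9, a costimulatory receptor of T cells, had −3.20 and 0.51 (difference −3.54, SE 0.89), on at most 37 counts in a CPF library at FR8. Among the called genes, CCN2 differed by 1.68 (SE 0.52, unadjusted p = 0.0037) and MAPK14 by −1.19 (SE 0.37, unadjusted p = 0.004), and without the 3 FS animals by 1.63 and −0.97.

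By list, the heat shock genes and the amino acid genes held the most members with a difference. Of all genes, the CPF change was higher for 2.12% and lower for 1.65% at an unadjusted p under 0.05. These shares were 2.09% and 1.94% without the 3 FS animals with muscle-rich Baseline libraries. The heat shock list had a median of 0.12 in FS animals, and in 8 of its 17 genes the CPF change was lower at an unadjusted p under 0.05. For HSPA8 the difference was −2.26 (SE 1.07) and for DNAJA1, a J-domain cochaperone, −1.90 (SE 0.71). Without the 3 FS animals with muscle-rich Baseline libraries the FS median was −0.083 and 6 genes were under that p, with HSPA8 at −1.82 (unadjusted p = 0.0802) and DNAJA1 at −1.52 (unadjusted p = 0.0121). In those 15 FS animals 7 of the 17 genes were lower and 1 higher at FR20 at an unadjusted p under 0.05, against 16.2% and 21.5% of all genes. Over single FS animals the heat shock median ran from −1.49 to 1.70 and was below 0 in 11 of 18. Amino acid and urea cycle genes had a median of −0.13 in FS animals, and the CPF change was higher in 6 of 20, among them GLS2 at 1.73 (SE 0.56) and ASL, argininosuccinate lyase, at 1.08 (SE 0.37). That count was 6 without the 3 animals too. Cholesterol genes had an FS median of 0.51 and, without the 3 animals, of 0.75 with 6 called, and 1 of 19 differed. Interferon-stimulated genes had 0.22 in FS animals, and the CPF change was lower in 2 of 16, and in 4 without the 3 animals.

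CPF animals that died and that lived were compared with 2 animals on each side. Of 11554 genes the edgeR quasi-likelihood test called 0 (0%) for a difference in the change from FR8 to FR20, with 764 at an unadjusted p under 0.05 (6.61%). DESeq2 called 10 and edgeR's likelihood ratio test 19. Leaving out animal 18 gave 143 calls, in a fit where animal 13 alone stands for the animals that lived, while leaving out 7, 8 or 13 gave 0. In each of these fits the animal left alone on its side is assumed to vary like the others. FADS2, a fatty acid desaturase, stood at 52.2, 18.01, 62.2 and 26.2 CPM at FR8 and 22.7, 13.3, 314 and 122 CPM at FR20, with a difference of died minus lived of −3.13 (SE 0.60, unadjusted p = 0.000251, edgeR adjusted p = 0.727). It was lower at FR20 in both animals that died and higher in both that lived. ALAS1, the rate-limiting enzyme of heme synthesis, stood at 346, 357, 169.8 and 114 CPM at FR8 and 673, 317, 1344 and 748 CPM at FR20 (difference −2.40, SE 0.49). CAB39L, a scaffold of the LKB1 kinase, stood at 16.8, 16.3, 26.1 and 28.7 CPM at FR8 and 20.02, 21.9, 9.61 and 14.8 CPM at FR20 (difference 1.53, SE 0.37). IFI44, an interferon-stimulated gene, stood at 15.6, 27.95, 113 and 115 CPM at FR8 and 14.2, 29.8, 26.4 and 52.5 CPM at FR20 (difference 1.57, SE 0.38). IFI44 at FR8 was higher in both animals that lived. In 5 lists 4 or more genes differed in 1 direction at an unadjusted p under 0.05. The change was higher in the animals that died for 5 of 16 interferon-stimulated genes and 5 of 19 proteasome subunits, against 2.96% of all genes. It was lower for 5 of 19 cholesterol genes, 5 of 12 fatty acid synthesis genes (with 2 others higher) and 4 of 11 glucocorticoid targets, against 3.65% of all genes. In animals 7, 8, 13 and 18 the glucocorticoid median was 0.26, −0.38, 3.85 and −0.16, so animal 18 lay between the animals that died. The cholesterol median was 1.45, 0.051, 2.09 and 1.32, with animal 7 above animal 18. The interferon, proteasome and fatty acid synthesis medians did not overlap between the animals that died and lived.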

How the data were processed

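RNA was extracted from frozen liver biopsies and sequenced as TruSeq libraries. Per the submitters' processing notes, the authors used CASAVA 1.8.2, TopHat 1.5.0 on Sscrofa10.2, SAMtools and HTSeq, and edgeR 3.2.4. The deposited table holds raw counts per pig Ensembl gene for all 92 libraries, not normalized and not pooled. The counting mode and strandedness of HTSeq are not given in the sources used here, so reads of overlapping, antisense or near-identical genes may be split or lost. Symbols came from a gene name table (11804 of 25322 identifiers), and 654 of 966 symbols in 42 lists were matched.

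Counts were tested with edgeR 4.0.16 in R 4.3.3 (TMM, quasi-likelihood F test, 2-sided, animal and time terms), keeping genes whose CPM summed to 10 or more. Calls needed a Benjamini-Hochberg adjusted p below 0.05 together with a log2 change of 1 or more in size. CPM used TMM library sizes. FR20 against FR8 in CPF animals was fitted on the 16 libraries of 4 animals, CPF minus FS on 44 libraries, and died minus lived on the 16 libraries. The 36 FS libraries alone, and both FS fits without 3 animals, were chosen after seeing the data. Per-animal changes used log2(CPM + 0.5). Libraries were paired by the animal codes of the labels. Same-animal FR8 and FR20 deviations from the group means correlated at 0.479, 0.397, 0.326 and 0.118 in animals 7, 8, 13 and 18, against −0.454 to 0.250 between animals. The FR8 library of animal 18 correlated more with the FR20 libraries of animals 7 (0.250) and 8 (0.140) than with its own. These correlations therefore do not bear out the pair of animal 18. With 4 pairs an exact sign-flip test cannot go below p = 0.125. No 2 libraries of a group agreed within sampling noise (chi-square per degree of freedom 65.1 or more).

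Depth in the 8 libraries was 8855156 to 12371875 counts. On simulated counts with 200 changed genes the CPF test recovered 66 of 100 at a log2 change of 1.5 and 95 at 3, with 5 false calls among 11382 genes. The CPF minus FS test recovered 49 and 84 of 100, and the died minus lived test 5 and 61 of 100. The simulation held no animal effects and no library that stood apart like FR20 of animal 13, a simpler setting than the data. Named genes are the 15 called genes with the smallest adjusted p in each direction, the called or extreme members of each list, all clock genes, the 3 most abundant markers of each cell type, the genes of smallest p for each difference, and FASN, CHKA, HSPD1, MYD88 and STAT3. Some genes that this rule names are not reported here. Members and lists were chosen with earlier results of these data known. Alternatives were RLE scaling, other filters, DESeq2 1.42.0, edgeR's likelihood ratio test, limma 3.58.1, no animal terms, other sets of libraries and leaving out each animal. Tables and figures used Python 3.11.15, pandas 2.3.3 and matplotlib 3.10.9. The nearly empty FR8 library of animal 3 was left out.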

Additional observations from a re-analysis of the deposited data

Results flagged for a closer look

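Of 380 sets of 4 values examined (each named gene reported here, at FR8 and at FR20 in CPF animals), 47 held a highest or lowest animal whose gap to the next exceeded Dixon's 95% limit for 4 samples, or 12.4%, where chance alone picks about 1 set in 20. Many of these genes were named as extremes of a list or after their values were seen, so the share cannot be read against that level. The FR20 library of animal 13 gave 22 of them, all as the highest value.

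At FR20 animal 13 stood apart, in CPM against the range of the other 3 animals, in RORA (96.8 against 6.82 to 15.3), PER1 (161 against 9.17 to 25.3), SERPINA6 (356 against 19.8 to 45.5), LPIN1 (182 against 8.68 to 10.1), SCD (193 against 36.1 to 54.3), GYS2 (752 against 62.6 to 160.5), ZBTB16 (8.29 against 0.0624 to 0.376) and MMP9 (5.37 against 0.470 to 0.936). The same held for HBB (1199 against 39.7 to 195), ALAS2 (43.6 against 2.06 to 6.75), FN1 (6006 against 1852 to 2185), CPS1 (3754 against 1008 to 1449.7), ALB (196100 against 15309 to 25386), CCNE2 (6.12 against 0.188 to 0.707), APOB (109 against 22.8 to 32.7) and FASN (389 against 9.07 to 21.2). It held also for BAG3 (517 against 58.1 to 105), INSIG1 (1741 against 139.7 to 168), ASS1 (3984 against 993 to 1387), GOT1 (264 against 80.3 to 104), PCK1 (9032 against 497 to 1459.7) and KLF9 (482 against 19.9 to 72.3). These genes span albumin and urea cycle enzymes, lipid and sterol genes, glucocorticoid-responsive genes, hemoglobin and clock genes.

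At FR20 animal 7 was the highest in MARCO (105 against 7.01 to 11.6), CD8B (2.54 against 0.565 to 0.686), BYSL (73.6 against 39.7 to 44.6) and PSMC5 (227 against 178 to 183), and animal 8 in DES (33.2 against 14.6 to 17.1), PYGM (3.28 against 0.249 to 0.565) and VLDLR (21.5 against 12.5 to 13.8). At FR8 animal 8 was the highest in LPIN3 (4.91 against 2.19 to 2.56), CRY1 (20.1 against 7.47 to 9.37), CXCL8 (2.64 against 0.487 to 0.818), NCF1 (5.73 against 2.03 to 2.48), HBM (0.693 against 0 to 0.102), HBB (186 against 48.8 to 69.2), ALAS2 (3.97 against 0.735 to 1.13), CFTR (6.23 against 1.94 to 2.60) and GLS2 (17.8 against 6.09 to 7.78). At FR8 animal 18 was the highest in IL1R2 (3.79 against 1.87 to 2.02), WDR12 (24.7 against 19.1 to 19.8) and HMGCS1 (124 against 54.5 to 61.04). At FR8 animal 13 was the highest in CYP7A1 (51.3 against 9.46 to 13.8), ALB (76596 against 42088 to 45241) and ABCB11 (154 against 10.196 to 28.4) and the lowest in COL3A1 (229 against 524 to 576). At FR8 animal 7 was the highest in HSPA5 (8325 against 3072 to 3527) and the lowest in FAS (5.14 against 9.003 to 9.51). LPIN3 and IL1R2 are called genes, and both were called although 1 animal stood apart at FR8. No cause of these values was tested.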

How the results depend on the processing

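All 55 called genes kept their sign in all 15 alternatives of the CPF comparison. The alternatives share libraries with the fit that chose these genes, which by itself favors the same sign. The alternative with the adjusted p alone is the main fit under another rule for calling, so its signs could not differ. The number called was 52 with RLE scaling, which moved the median of all genes by −0.0072, 55 with filterByExpr and 58 with the adjusted p alone. It was 91 with no filter on low counts (60 higher, 31 lower), 281 with DESeq2, 268 with edgeR's likelihood ratio test, 145 with limma, 144 with the 19 usable CPF libraries including animal 3, 4 with the 8 libraries of FR8 and FR20 alone and 2 with all 91 libraries. Fitted without the animal block, the pairing was lost and 9 were called. Leaving out each animal gave 1 to 86 (2 without animal 7, 37 without 8, 86 without 13, 1 without 18). The causes were not tested.

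The difference between CPF and FS animals called 0 genes under every alternative run, including those without the animal block and without the 3 FS animals with muscle-rich Baseline libraries, with 242 to 725 genes at an unadjusted p under 0.05. Died minus lived called 0 except 10 with DESeq2, 19 with edgeR's likelihood ratio test and 0 to 143 when leaving out each animal (143 without animal 18, 0 without 7, 8 or 13). The block changed no other call count. Of 196 named genes tested, 38 were called, and 36, 16, 15 and 37 of these fell short without animals 7, 8, 13 and 18. With DESeq2 33 further named genes passed and with limma 11. Depth bears most on low genes such as IL1R2, CUL7 and DBP, and 4 pairs limit what the died and lived comparison could show.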
